A study of Mus musculus with 2 samples.

Results

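The genes described are the 8 of the insulin-like growth factor (IGF) binding protein group, Igfbp1 to Igfbp7 and Igfals, as measured in muscle RNA from male mice, strain CD2F1/Slc, at 11 weeks of age. They were chosen by name, as every non-control probe whose gene name in both scanner files is one of the 8, which gave 10 probes, each printed as 1 spot per array; the arrays named 34740 genes in all. There were 2 one-colour arrays, 1 of muscle from a control (PBS injection) and 1 from the C26 group (1000000 colon 26 carcinoma cells in 100 µL of PBS, implanted under the skin of the flank), a mouse model of cancer cachexia, the wasting of muscle and fat that accompanies some cancers. The sources used here do not give the muscle sampled, the days from implantation to sampling, or whether RNA of several mice was pooled. With 1 array per group no test between the conditions could be made, so each ratio below describes this pair of arrays, and its error is that of the spot measurement, which leaves out the spread between mice.

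IGF1 and IGF2 circulate and act bound to these proteins. IGFBP1 to IGFBP6 bind IGFs with high affinity and can hold them away from the IGF1 receptor, prolong their life or present them near cells, depending on the protein and on the proteases that cleave it. IGFBP3 and IGFBP5 form a large complex with an IGF and the acid labile subunit, the product of Igfals, which is made mainly by the liver. IGFBP7 binds IGFs weakly and is known from blood vessel walls. In muscle, IGFBP5 has been studied in the differentiation of myoblasts, and Igfbp1 is a classical liver gene switched off by insulin and on by fasting and FoxO factors.

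4 sequences are shown. The probes of Igfbp2 and Igfals with an open reading frame show what was hybridised. The promoters are those of Igfbp1 and Igfals, known as liver genes, with the motifs found in them. No test links these sequences to the ratios. The capitals in the brighter Igfbp2 probe (mm9, chr1:72898677-72898736, plus strand) mark a stop codon, the last of 20 codons of a frame with no other stop. The Igfals probe (mm9, chr17:25018251-25018310, plus strand) has 1 frame with no stop.
Igfbp2 probe: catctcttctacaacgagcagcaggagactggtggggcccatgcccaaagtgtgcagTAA
Igfals probe: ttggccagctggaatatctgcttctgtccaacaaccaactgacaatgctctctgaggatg
The promoters are the 250 bases before the start site in RefSeq, from the table's build GRCm38.p6, which is not the build of the probe positions. All 8 genes matched the table. In the Igfbp1 promoter (chr11:7197537-7197786, plus strand) capitals mark matches to CAAAANAA, the repeat unit of the insulin response element, searched on both strands. They begin at -108 and -98 from the start site and face each other. In the second of 3 start sites listed for Igfals (chr17:24877981-24878230, plus strand) capitals mark a match to the STAT motif TTCNNNGAA, from -58 to -50; STAT5 carries the growth hormone signal to Igfals in the liver.
Igfbp1 promoter: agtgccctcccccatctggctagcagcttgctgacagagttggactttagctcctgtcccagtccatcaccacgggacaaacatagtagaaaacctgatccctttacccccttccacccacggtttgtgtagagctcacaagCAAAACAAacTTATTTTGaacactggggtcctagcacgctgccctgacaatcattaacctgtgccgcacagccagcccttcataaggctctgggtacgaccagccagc
Igfals promoter: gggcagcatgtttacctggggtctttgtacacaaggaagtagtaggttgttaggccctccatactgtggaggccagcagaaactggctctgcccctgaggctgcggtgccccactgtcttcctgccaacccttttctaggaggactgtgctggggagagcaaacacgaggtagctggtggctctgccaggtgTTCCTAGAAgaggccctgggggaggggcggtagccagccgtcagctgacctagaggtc
The unit CAAAANAA occurred in 7.95% of 32851 promoter windows of 300 bases, and the pair of facing units with 2 bases between them in 1 window, that of Igfbp1. This pair has the arrangement printed above for Igfbp1, so a match in the Igfbp1 window was given by the pattern. TTCNNNGAA reads the same on both strands and occurred in 8.30% of the windows and in 2 of the 3 windows of Igfals. The FoxO core GTAAACA, searched on both strands, was in 3.65% of the windows and, among the 11 windows of the members, in the second of Igfals. The glucocorticoid motif GNACANNNTGTNC was in 0.475% of the windows and in none of the 11.

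By its brightest probe, none of the 7 members measured on both arrays differed 2-fold between the C26 and control arrays. A second Igfbp2 probe was not well above background in C26 muscle. It was 3.90-fold lower there when given the lowest signal well above background on that array. A gene was counted as measured where its brightest probe passed the scanner software's background flag in both samples, and its log2 ratio is C26 over control after each array was scaled to its 75th percentile. The ratios of the 7 members lay between -0.72 and 0.13, with a median of -0.08; that of all 19668 measured genes was 0.04. Over all measured genes, 1.25% passed 2-fold upward and 1.15% passed it downward (245 and 226 genes). With normexp background correction these were 131 and 65 genes, and with a signal of at least 100 required on both arrays 158 and 89, so the share of higher genes moved from 52.0% to 66.8% and 64.0%. With the 5 other scalings it was 43.0% to 47.5%. At this background a count of 0 among 7 genes is not a result about the family. Igfbp2 was the 1 member at least 1.5-fold lower, against 4.83% of all genes, and no member was 1.5-fold higher, against 4.37%.

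**Figure D1:**
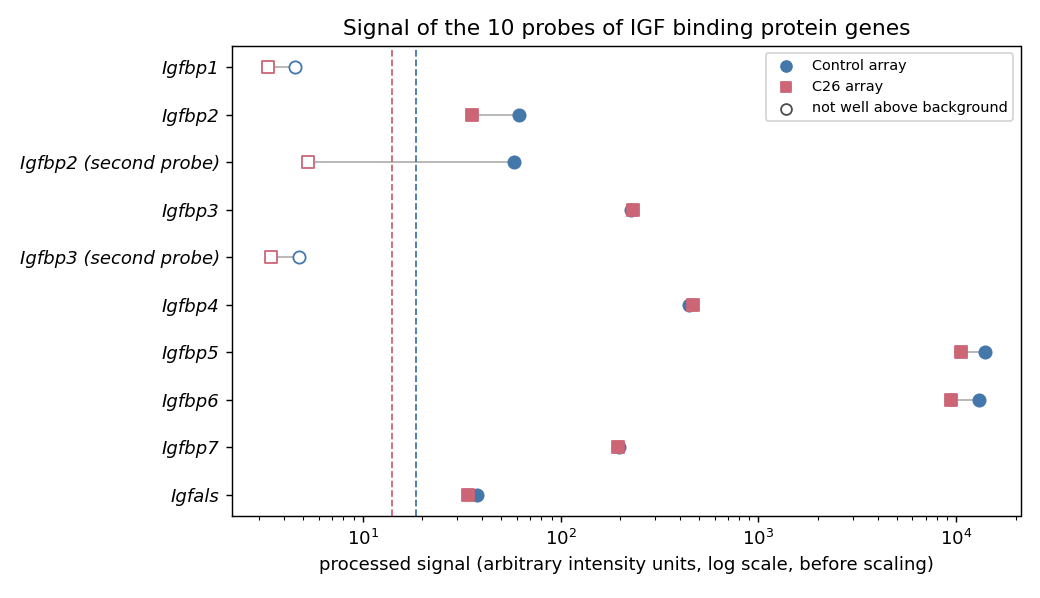
Processed signal (arbitrary intensity units, log axis) of the 10 probes of the 8 genes on the Control array (circles) and the C26 array (squares). Open symbols are spots not well above background, and dashed lines mark the lowest signal that passed the background flag, 18.5 (Control) and 14.1 (C26). Signals can be set against each other within a probe, not between probes. The second Igfbp2 probe stands at 57.9 on the Control and at 5.31 on the C26 array, below the line, while the pairs for Igfbp3, Igfbp4, Igfbp7 and Igfals nearly overlap.

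Among the members of the large circulating complex, Igfbp3 and Igfals were level within the error and Igfbp5 was somewhat lower in the C26 array. The Igfbp3 probe at the listed messenger (NM_008343; mm9, chr11:7106594-7106653, minus strand) gave a signal of 228 for control muscle and 231 for C26 muscle. Its log2 ratio of 0.09 (error 0.21) was 0.44 times its error. A second Igfbp3 probe, listed under another transcript (ENSMUST00000135887; chr11:7107949-7108008), read 4.79 and 3.44, both values put in by the scanner software for spots too low to measure, so it gives no ratio. Igfals, of which the probe is shown above, had signals of 38.0 and 34.2, a log2 ratio of -0.08 (error 0.30). These signals are near background, and the difference was smaller than its error.

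Igfbp5 (NM_010518; mm9, chr1:72904829-72904888, minus strand) had signals of 13900 and 10600, which was 1.25-fold lower in the C26 array. The log2 ratio was -0.32 (error 0.20), and 12.4% of all measured genes had a lower ratio. The software error of 0.20 is close to a fixed share of the signal for bright spots. A second measure of spot error comes from probes printed in at least 8 copies on both arrays: the standard deviation between the copies' log2 ratios had a median of 0.041 over 92 probes with a signal above 1000, 0.081 over 124 probes between 100 and 1000, and 0.196 over 47 probes below 100. The Igfbp5 ratio was 1.59 times the software error and larger than the spread between copies of bright probes. Both measures leave out differences in labelling and between mice.

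Of the members that carry IGFs in small complexes, Igfbp6 and Igfbp2 were lower in the C26 array, Igfbp4 was level, and Igfbp1 was not well above background in either. Igfbp6, which prefers IGF2 (NM_008344; mm9, chr15:101979852-101979911, plus strand), had signals of 13000 (control) and 9340 (C26). It was 1.33-fold lower, with a log2 ratio of -0.41 (error 0.20), 2.0 times its error, and 9.14% of all genes had a lower ratio. Igfbp4, the substrate of the protease PAPP-A (NM_010517; mm9, chr11:98913334-98913393, plus strand), had signals of 447 and 465 and a log2 ratio of 0.13 (error 0.20). Igfbp7, the low-affinity member (NM_001159518; mm9, chr5:77778271-77778330, minus strand), had signals of 197 and 194 and a log2 ratio of 0.05 (error 0.21). For Igfbp4 and Igfbp7 the difference was smaller than the error, and the sign for Igfbp7 turned, to -0.01, when the scaling used the 75th percentile of the probes well above background.

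Igfbp2, which binds IGF2 tightly and is abundant in the fetus, gave the lowest ratio of the family, except with normexp correction, and its probes disagreed on the size. The brighter probe, the one shown above, had signals of 61.9 (error 7.37) and 35.7 (error 4.66), which was 1.65-fold lower in the C26 array. Its log2 ratio was -0.72 (error 0.25), 2.82 times its error, and 2.95% of all genes had a lower ratio. The second probe begins 136 bases further along the same transcript (NM_008342; chr1:72898813-72898872) and read 57.9 (error 7.69) in control muscle. In C26 muscle it read 5.31 (error 3.65), which was not well above background, and the software did not find the spot, as for 25.2% of all spots of that array. With the lowest signal well above background there, 14.1, in place of 5.31, the second probe was 3.90-fold lower. This is not a strict limit, since the flag is set spot by spot and Fcgr1, at 15.1 on that array, did not pass it. The errors of the signals are left out of it. Both probes were thus lower in the C26 array. Of 27335 probes that passed the background flag in the control, 554 did not in C26 muscle, and 1.97% of the 27335 were at least 2-fold lower by their ratio or bound.

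The value for Igfbp2 depends on how dim spots are treated. After normexp correction with an offset of 50 added to each signal, the log2 ratios were -0.33 for the brighter probe and -0.66 for the second. By the brightest probe Igfbp6, at -0.44, and Igfbp5, at -0.34, were then lower than Igfbp2. The probes differ in base composition, with 55.0% G and C in the brighter and 40.0% in the second. Whether this has a part in their disagreement was not tested.

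**Figure D2:**
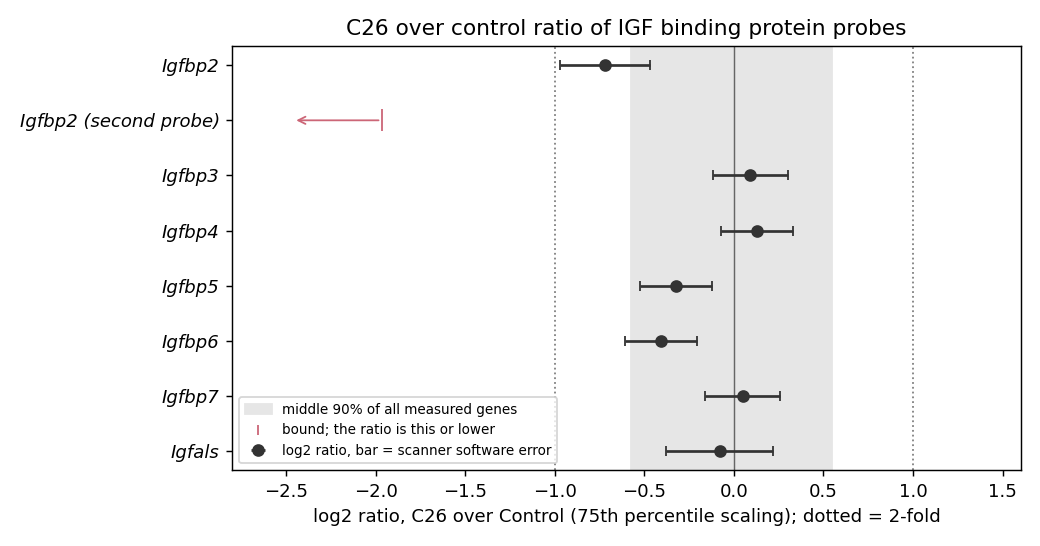
Log2 ratio of C26 over Control for the probes with a ratio or a bound. Points are ratios with the scanner software's error as bars. The arrow is a bound: it starts at the ratio with the C26 signal set to the lowest well above background, and is not a strict limit. The grey band holds the middle 90% of all 19668 measured genes, and dotted lines mark 2-fold. The brighter Igfbp2 probe lies left of the band and its second probe beyond 2-fold, while Igfbp5 and Igfbp6 lie inside the band, to the left of 0.

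Igfbp1 (NM_008341; mm9, chr11:7102442-7102501, plus strand) read 4.53 in control and 3.33 in C26 muscle, both put in by the software for a spot too low to measure. Its promoter is the one printed above with the paired CAAAANAA matches. For comparison, Foxo1, which encodes a FoxO factor, had a log2 ratio of 1.64 (error 0.20), and its known target Pdk4, a kinase that restrains pyruvate oxidation, had 2.26 (error 0.20). Both were chosen after their values were seen.

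Igfals and Igfbp1 can be set beside other transcripts of the liver. Of 12 hepatocyte markers, 11 were measured, 7 of them 2-fold higher or more in the tumour-bearing sample (6 with each other scaling) and none 2-fold lower. Their median log2 ratio was 1.27. The background flag was passed by 12 in C26 and 11 in control muscle, and the sum of their scaled signals was 37.6 and 66.3 on the control and C26 arrays. Such sums are set mostly by the few brightest probes and do not stand for the whole list. Hpx (hemopexin, a heme carrier) stood highest at 3.29 (error 0.25), or 2.17 with normexp correction, and Alb (albumin) had 1.86. Fgb (fibrinogen beta chain) had 1.80, or 1.14 with normexp correction. The others past 2-fold were Ahsg at 1.46, Ambp at 1.43, Cyp2e1 at 1.27 and Serpina1a at 1.04, the last of which was under 2-fold with the other scalings. The lowest were Tat, an amino acid enzyme induced by glucocorticoids, at -0.21, and Apoc3, an apolipoprotein, at 0.0050. Igfals stood at -0.08 and Igfbp1 was not well above background, while this list was higher. The part of liver-type RNA in these values was not tested.

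Some members have neighbours within the family. Igfbp1 and Igfbp3 lie tail to tail on chromosome 11, with 4092 bases between their nearest probes, and Igfbp2 and Igfbp5 tail to tail on chromosome 1, with 5956 bases between theirs (mm9, from the probe positions). In the first pair Igfbp3 was measured and level and Igfbp1 was not well above background. In the second pair both genes were lower in the C26 array, at -0.72 and -0.32.

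Markers of other cells moved beside these genes. Of all 19668 measured genes, 11103 had a ratio above 0 and 8565 below 0 with the reported scaling. All 10 fibroblast markers had a ratio below 0, with each scaling tried, and the collagen genes Col3a1 and Col1a1 were 3.99-fold and 3.51-fold lower. The sum of the list's scaled signals, set mostly by its brightest probes, was 857 in control and 590 in C26 muscle. The list's median was -0.49, and its ratios nearest to 0 were Dcn at -0.32 and Pi16 at -0.34. Igfbp5 at -0.32 and Igfbp6 at -0.41 lay close to these last values, and Igfbp2 at -0.72 lay within the list's range. This is not particular to the fibroblast list. The range of the macrophage markers, -1.35 to -0.05, also held these genes, and that of the mural cell markers, -0.64 to 0.25, held Igfbp5 and Igfbp6. The part of fibroblast RNA in the lower values of Igfbp2, Igfbp5 and Igfbp6 was not tested; in bulk muscle, fewer cells of a type and less RNA per cell cannot be told apart. Endothelial markers were above 0 for 12 of 12, with a median of 0.26. The highest were Cldn5 (claudin 5, of endothelial junctions) at 1.30 and Vwf at 0.86, and the lowest were Kdr at 0.01 and Emcn at 0.04. This count rests on the brightest probe of each gene: another Kdr probe, printed in 10 copies, had -0.63 (error 0.06), and another Ptprb probe -0.29 (error 0.32). With scalings other than normexp 9 to 10 of the 12 were above 0. The sums of scaled signals, set mostly by the brightest probes, were 123 in control and 157 in C26 muscle. Igfbp3 and Igfbp7, which vessel cells also make, were level. Muscle fibre markers were present, all 10 well above background on both arrays, with a median of 0.03, which was below 0 with scalings other than normexp, and none 2-fold different. Mural cell markers had a median of -0.07 (8 measured), macrophage markers -0.17 with 7 of 7 below 0 and Cd68 2-fold lower at -1.35, and adipocyte markers 0.17 (6 measured). Schwann cell markers had a median of 0.13 (5 measured) and satellite cell markers -0.20, with 3 of 3 below 0. Markers of epithelial and carcinoma cells had 0.11 (3 measured). No Schwann, satellite or epithelial marker was 2-fold different. The 3 erythroid markers measured were all 2-fold higher, Slc4a1 at 2.43, Alas2 at 2.31 and Hba-a1 at 1.37. Their part in the values of the binding protein genes was not tested.

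Beyond the binding proteins, 1 of 13 measured genes of IGF ligands, receptors and adaptors differed 2-fold. Pik3r1, the regulatory subunit of PI3-kinase, was 2.43-fold higher in the C26 array, at signals of 242 and 558. Irs2, an adaptor of both receptors, had a log2 ratio of 0.47. The adaptor Grb14, an inhibitor of the insulin receptor, was lowest at -0.94 (1.92-fold lower), followed by Irs1 at -0.77. The list's median was 0.07. Igf1 had 5 probes, with log2 ratios from -0.84 to 0.07, none of them above 0 by more than its error. Those at -0.84, -0.29 and -0.23 (error 0.14 each) were below 0 by more than their error. The brightest Igf1 probe had 0.07 (error 0.14), so the probes disagreed. Igf2, the ligand that Igfbp2 and Igfbp6 prefer, had signals of 67.4 on both arrays and a log2 ratio of 0.07 (error 0.24).

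Growth hormone raises Igf1, Igfbp3 and Igfals in the liver through STAT5. Of 9 genes of this axis 6 were measured and none differed 2-fold. Jak2, the kinase of the receptor, had a log2 ratio of 0.37 and Cish, a feedback inhibitor induced by STAT5, 0.16, with Stat5a at -0.11 and the receptor Ghr at -0.09. Their median of 0.03 turned to between -0.06 and -0.02 with the scalings other than normexp.

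Of the proteases that cleave the binding proteins 13 were measured, of which 1 was 2-fold higher and none 2-fold lower. Plg, plasminogen, had signals of 19.3 and 37.6 and a log2 ratio of 1.03 (error 0.36), and its log2 ratio ranged from 0.37, with normexp correction, to this value over the 7 settings. It stayed past 2-fold with quantile normalization and the deposited table, and not with the other 4 alternatives, where no protease was past 2-fold. Plg is also a liver transcript. Next came Adamts1 at 0.46, and the lowest were Mmp2, a gelatinase, at -0.71 and Plat, tissue plasminogen activator, at -0.41. The list's median was -0.16, with 10 of 13 below 0, against 8565 of all 19668 measured genes. Pappa, which cleaves IGFBP4, read 18.0 in control muscle, not well above background, and 23.2 in C26 muscle. This was 1.32-fold higher with the control signal set to the lowest well above background there. From the signals as read, the log2 ratio was 0.44 (error 0.42), so the difference was close to its error. Pappa2, which cleaves IGFBP3 and IGFBP5, was not well above background on either array.

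Among inhibitors of these proteases 7 genes were measured, of which 2 were 2-fold higher or more and 1 was 2-fold lower or more. Stc2 (stanniocalcin 2), which blocks PAPP-A, had signals of 54.5 and 119 and a log2 ratio of 1.20 (error 0.23). Serpina3n, an acute-phase serpin, had 1.25 (error 0.21). With normexp correction these were 0.69 and 0.92, so neither was then 2-fold higher. Timp1, an inhibitor of metalloproteinases, was 3.75-fold lower, at signals of 315 and 79.8, a log2 ratio of -1.91 that was -1.29 with normexp correction, and Timp2 stood at -0.40.

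The N-terminal fold of the IGFBPs also occurs in other secreted proteins that bind IGFs weakly or not at all. Of 11 such relatives measured, 1 passed 2-fold upward and 2 downward. Their median was -0.31 and 8 were below 0, against 8565 of all 19668 measured genes. Ccn1 (Cyr61), a matrix signal that responds to strain, had signals of 942 and 2350 and a log2 ratio of 1.39 (error 0.20), followed by Crim1 at 0.52. Esm1, a proteoglycan of endothelial tip cells, was 3.08-fold lower at 131 and 40.5. Ccn4 (Wisp1), a WNT target, was 2.50-fold lower at 156 and 59.3. With normexp correction Esm1 and Ccn4 had -0.81 and -0.79. Igfbpl1 was not well above background on either array.

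Partners that binding proteins touch in the matrix and on the cell surface had a median of -0.09 over 12 measured genes. Spp1 (osteopontin), to which IGFBP5 binds, was 2.39-fold lower at signals of 170 and 67.8, or -0.73 on the log2 scale with normexp correction. Fn1 (fibronectin) had -0.87, while Itga5, an integrin subunit that IGFBP1 can engage, had 0.51 and Sdc4, a syndecan, 0.46. The Igf2bp genes share part of the name and encode RNA-binding proteins. Of these, Igf2bp2 had a log2 ratio of 0.06 (error 0.35), and Igf2bp1 and Igf2bp3 were not well above background on either array. Over the 7 lists together, 61 of 78 genes were measured, 5 passing 2-fold upward and 4 downward, with a median of -0.06.

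**Figure D3:**
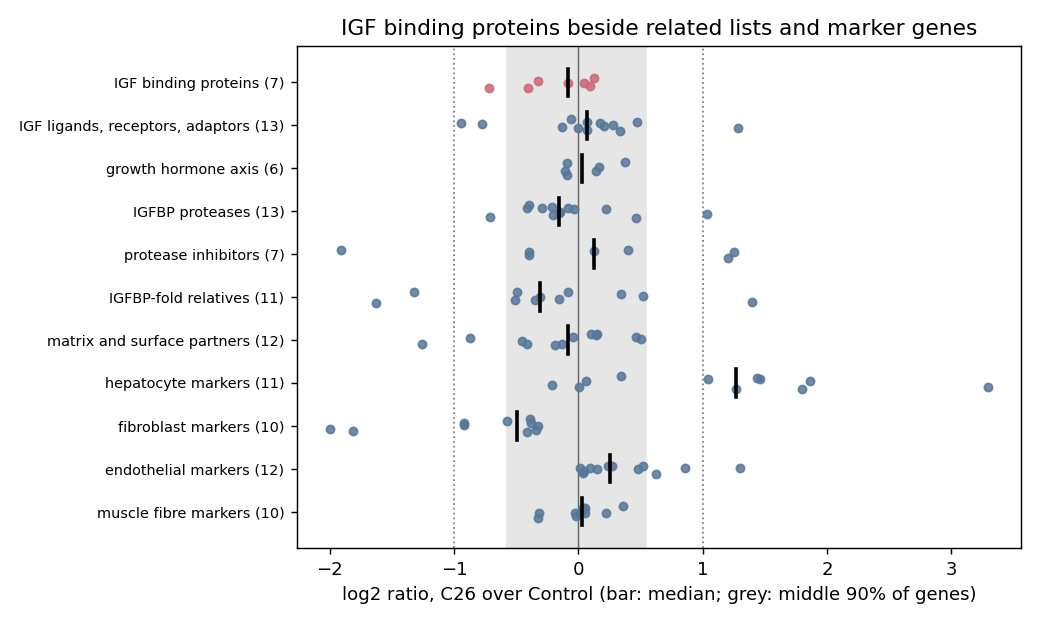
Log2 ratio of C26 over Control for the 7 measured IGF binding protein genes (red) and for related lists and marker lists (blue), 1 point per measured gene, with the median as a bar. The number measured is in brackets, the grey band holds the middle 90% of all measured genes, and dotted lines mark 2-fold. All binding protein genes lie between the dotted lines, hepatocyte markers reach 3.29, and all fibroblast markers lie left of 0.

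**Figure D4:**
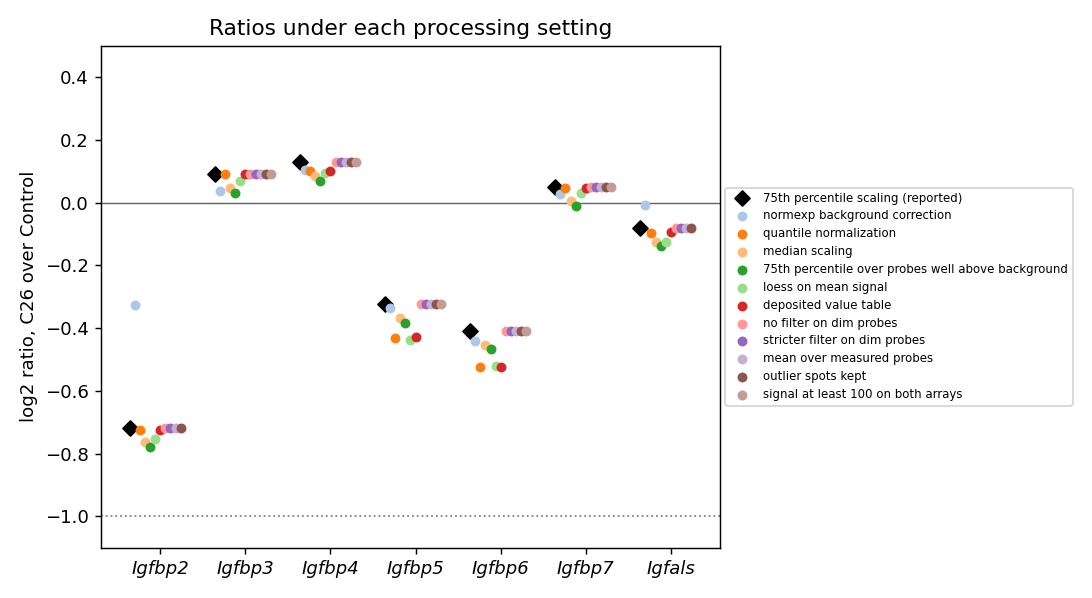
Log2 ratio of C26 over Control of the 7 measured members (horizontal axis) under each processing setting; the diamond is the reported value and each coloured point 1 alternative. Igfbp5 stays between -0.44 and -0.32 and Igfbp6 between -0.53 and -0.41, whereas Igfbp2 moves from -0.78 to -0.33, the latter with normexp correction.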

How the data were processed

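Muscle RNA was measured on 2 Cy3 arrays of 60-base probes, 1 per group, on 1 slide with the same scan time. Per the file headers, Agilent Feature Extraction 10.7.1.1 read the scans (the submitters' processing notes list 9.5.1.1). The processed signals in the scanner files, used here, are background-subtracted, detrended within the array and not normalized between arrays. Flags of the file headers (other columns) mark spots as controls, outliers or well above background. The background flag was passed by 50.4% of non-control spots in the control and 53.8% in the C26 sample; no spot was saturated.

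Outlier spots were left out, spots of a probe averaged as log2, each array's 75th percentile subtracted, and a gene represented by its brightest probe, with at least 50% of its spots above background on both arrays. Names of 31381 of 55680 probes matched the RefSeq gene table (GRCm38.p6). Errors are the software's signal errors carried to the log2 scale. A bound uses the higher of the dim probe's value and the lowest value above background on that array. It carries no error and is not a strict limit, since some spots with higher signals did not pass the flag. The deposited table of normalized intensity values was linear and not centred (median 19.75 in both columns; 99.9% of values within 0.05 log2 of quantile-normalized signals; the sources used here do not say how the authors made it) and served as an alternative, beside normexp (offset 50), quantile, median, above-background percentile and loess (span 0.3) scalings, filters, mean over probes and thresholds of 1.5-fold and 3-fold. Named genes were all member probes and, of each list, every gene past 2-fold and the 2 highest and 2 lowest. For the muscle fibre, mural, macrophage, adipocyte, erythroid, Schwann, satellite and epithelial markers the text names the genes past 2-fold alone. Igf1, Igf2, Pappa, Pappa2, Igfbpl1, Igf2bp1, Igf2bp3, Foxo1 and Pdk4, and the other probes of Kdr and Ptprb, fall outside this rule and were named after their values were seen. The members and lists were chosen with earlier results of these data known. The ratio step was tested on simulated data. Python 3.11.15, numpy 2.4.6, pandas 2.3.3, matplotlib 3.10.9, R 4.3.3 and limma 3.58.1 were used.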

Additional observations from a re-analysis of the deposited data

How the results depend on the processing

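No paired analysis was possible because each group has 1 array. No alternative changed the sign of a member other than Igfbp7, whose ratio near 0 was below 0 in 1 of 12 settings. Only the 6 scaling and background alternatives could change a member's ratio, since each measured member had 1 measured probe of 1 spot. With normexp correction the log2 ratio of Igfbp2 was -0.33 and the lists together had 2 genes at least 2-fold higher and 1 lower, against 5 and 4; the cause was not tested. At 1.5-fold 1 member was lower, and 8 list genes were lower; at 3-fold 0 were higher and 2 lower, as follows from the threshold. Without a filter on dim probes the put-in values of Igfbp1 give -0.38. The planned stricter filter left out few genes (19659 remained), so a filter of a signal of at least 100 on both arrays was added after seeing the data: it kept 5 members, without Igfbp2 and Igfals, and 3 list genes were then 2-fold higher and 0 lower. The other 129 values, among them the member ratios that could not change, stayed within the error or within 1.5 times the count. The share of higher among all genes past 2-fold, 52.0%, was 66.8% with normexp, which had 131 higher and 65 lower against 245 and 226, and 43.0% to 47.5% with the other scalings. Without a filter the counts were 1579 and 1316. Signals near background limit Igfbp2 and Igfals.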
